A study of Mus musculus with 12 samples.

Results

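The 10 genes described here, Stag3, Smc1b, Rec8, Spo11, Dmc1, Mei1, Mei4, Msh4, Msh5 and Meiob, encode parts of the meiotic cohesin ring and of the machinery of meiotic recombination. They were chosen by name, as the genes to which 14 probes of a single-colour Agilent mouse array map through their RefSeq accessions, out of 19718 genes with a probe. Their RNA was measured in control MEFs, in OS-treated and OCKS-treated MEFs and in E15.5 PGCs, with 3 arrays per group and 12 in all. MEFs are mouse embryonic fibroblasts, here male and from a C57BL6/J cross that carries the reporters Vasa::RFP and Oct4_delta_PE-GFP. The treated MEFs carry the same reporters and were taken on day 4 after transfection with an expression construct, OS (Oct4 and Sox2) or OCKS (Oct4, c-Myc, Klf4 and Sox2), and with a short interfering RNA against the maintenance DNA methyltransferase Dnmt1. Both treatments also contained chem, a mix of inhibitors of H3K4 demethylation (tranylcypromine), of H3K9 methylation (BIX-01294) and of H3K27 methylation (3′-deazaneplanocin A), and VA5, which is valproic acid with an ALK5 inhibitor. The labels do not say whether control MEFs received a control transfection. PGCs are primordial germ cells, here female, taken from genital ridges of E15.5 embryos of an MCH by C57BL6/J cross with the Oct4_delta_PE-GFP reporter, so that PGCs and MEFs differed in sex and strain as well as in cell type. The transfected MEFs were analysed as bulk cultures, in which fewer cells that express a gene and less RNA per cell cannot be told apart.

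In meiosis, homologous chromosomes pair and exchange DNA before they separate. A cohesin ring with the meiotic subunits STAG3, SMC1B and REC8 holds sister chromatids together and carries the chromosome axis. SPO11 cuts the DNA with the help of MEI1 and MEI4, DMC1 and MEIOB act on the single-stranded ends that search for the homologue, and MSH4 and MSH5 stabilise the joined molecules that become crossovers. Female germ cells enter this programme in the fetal ovary, whereas fibroblasts hold sister chromatids together with the cohesin of dividing cells.

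The genes differed in the sequence around their start sites, and 3 of these sequences are shown because they belong to genes with unlike changes in treated MEFs: Stag3 and Smc1b, which rose, and Mei1, which did not pass the test. Each runs 5′ to 3′ from 250 bases before to 50 bases after a RefSeq start site in GRCm38.p6. Capitals mark the letters CACGTG, an E-box of the kind that MYC and MAX proteins bind, and TCCCGC, an E2F-type motif, on either strand. Stag3 lies at chr5:138280259-138280558 on the plus strand, Smc1b at chr15:85131908-85132207 on the minus strand and Mei1 at chr15:82082226-82082525 on the plus strand.
Stag3: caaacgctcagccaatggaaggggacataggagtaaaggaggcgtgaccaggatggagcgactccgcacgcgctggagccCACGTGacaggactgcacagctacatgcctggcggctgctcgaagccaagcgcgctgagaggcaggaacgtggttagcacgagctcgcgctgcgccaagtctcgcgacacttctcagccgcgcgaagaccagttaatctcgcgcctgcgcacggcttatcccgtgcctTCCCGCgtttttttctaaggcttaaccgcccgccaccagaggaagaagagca
Smc1b: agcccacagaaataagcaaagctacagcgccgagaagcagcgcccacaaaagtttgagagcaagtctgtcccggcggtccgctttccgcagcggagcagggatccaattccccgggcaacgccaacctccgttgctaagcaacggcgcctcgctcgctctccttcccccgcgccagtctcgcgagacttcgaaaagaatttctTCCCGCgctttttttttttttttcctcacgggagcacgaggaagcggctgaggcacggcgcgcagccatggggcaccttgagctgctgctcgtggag
Mei1: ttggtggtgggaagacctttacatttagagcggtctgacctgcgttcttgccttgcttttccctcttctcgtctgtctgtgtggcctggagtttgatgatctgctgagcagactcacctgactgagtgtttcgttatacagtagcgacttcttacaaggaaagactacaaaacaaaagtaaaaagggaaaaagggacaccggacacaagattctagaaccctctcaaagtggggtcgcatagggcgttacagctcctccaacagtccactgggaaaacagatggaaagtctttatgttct

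The Stag3 window held 30 CpG dinucleotides, more than 88.3% of 32851 such mouse promoters, and the Smc1b window held 29 (more than 87.1%). The Mei1 window held 8 and that of Msh4 6, close to the median of 7 over all promoters. Between these lay Msh5 (27), Rec8 and Dmc1 (18 each) and Mei4 (16). Of the 8 genes with a promoter in the RefSeq table, Stag3 alone had the E-box, at position -170 counted from the start, a motif found in 7.15% of all promoters. The E2F-type motif occurred in 5 of the 8, Stag3, Smc1b, Rec8, Dmc1 and Msh5, against 20.0% of all promoters. A motif described for the meiotic regulator STRA8, CNCCTCAG on either strand, occurred in Msh5 only and in 7.94% of all promoters. None of these motifs overlapped another in the 8 windows. The start sites used for Smc1b and Mei4 are the ends of the annotated genes, and those of the other 6 lie inside theirs. The annotated genes start at chr5:138272514 for Stag3 and chr15:82070074 for Mei1, well upstream of the windows shown. Whether these windows are the promoters of the transcripts measured was not tested, so CpG counts and motifs describe the windows only.

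Signals are given on a log2 scale relative to the 75th percentile of the array, so that most genes have a negative value. A gene with several probes was represented by its brightest probe. A rise or a fall here means a change of 2-fold or more with an adjusted p under 0.001. Each comparison covered the genes that every array of 1 or both of its groups measured well above background. In PGCs all 10 genes were well above background on every array, as were 85.6% of all genes. In control MEFs 7 of the 10 were above background on all 3 arrays, beside 79.3% of all genes, and 1, Dmc1, on none. In OS-treated and in OCKS-treated MEFs 7 were above background on all 3 arrays and 3 on none. Over all genes 79.2% (OS) and 77.3% (OCKS) were above background on all 3 arrays.

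**Figure D1:**
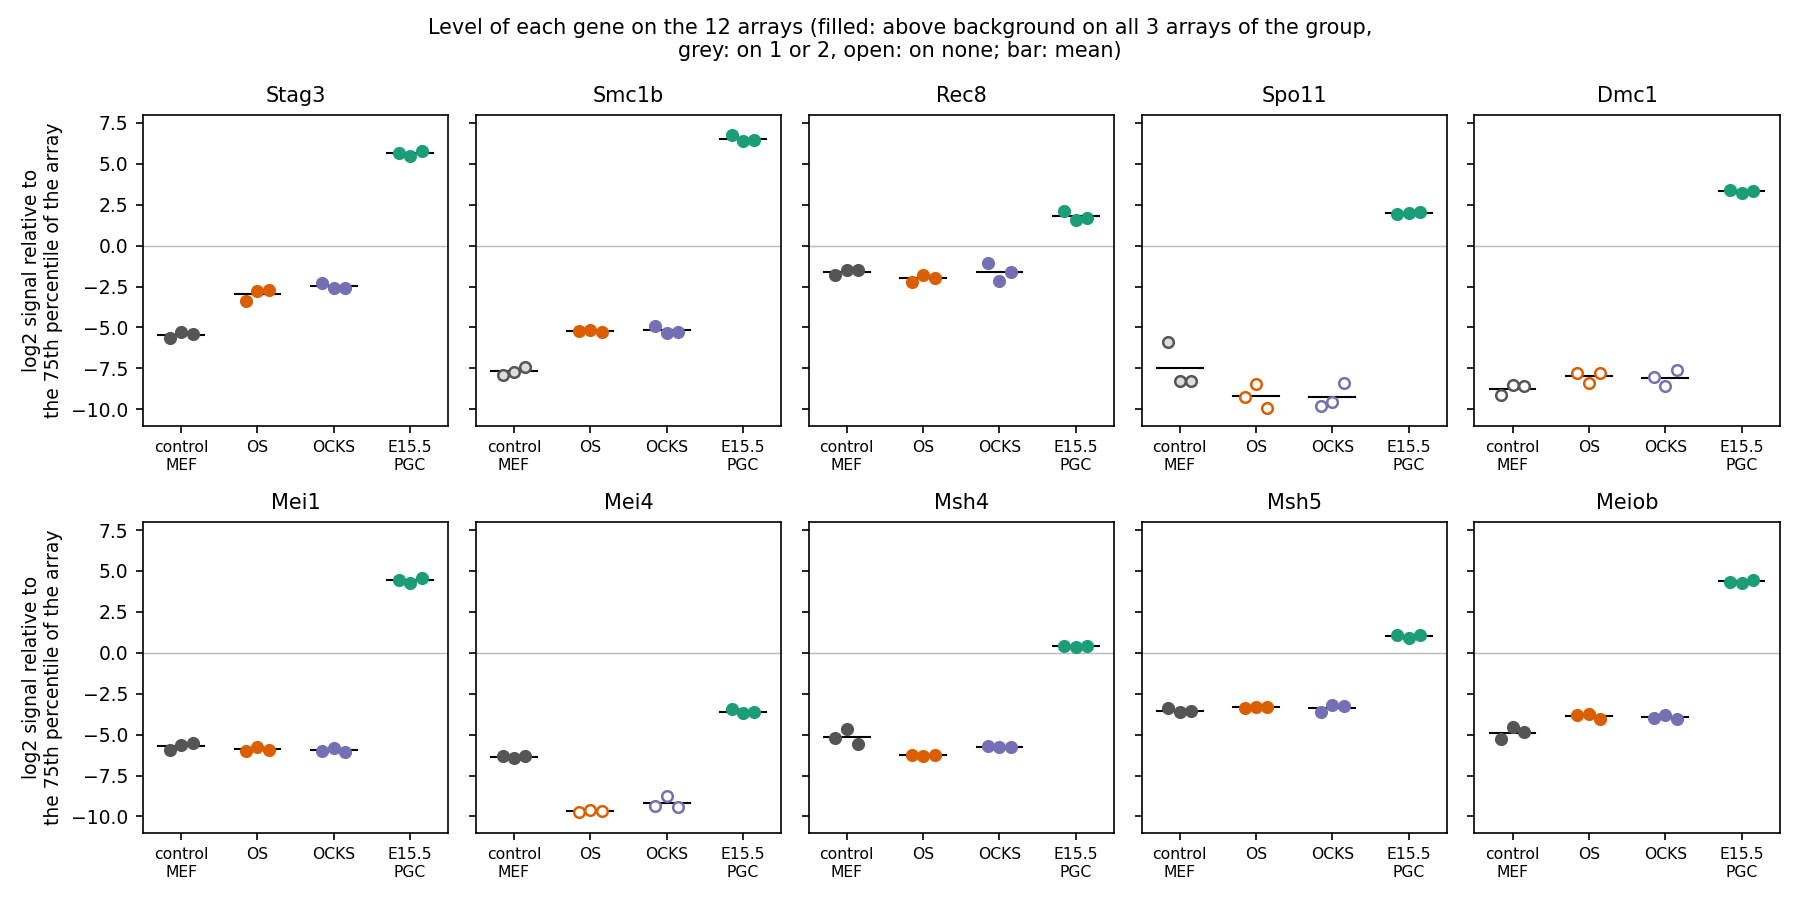
Log2 signal relative to the 75th percentile of the array (y axis) of the 10 genes in control MEFs, OS-treated MEFs, OCKS-treated MEFs and E15.5 PGCs, with 1 point per array and a bar at the mean of 3 arrays. Filled points mark groups above background on all 3 arrays, grey points on 1 or 2 and open points on none. PGCs lie highest in every panel, Stag3 and Smc1b lie higher in treated than in control MEFs, and Mei4 is open in both treated groups.

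The 75th percentile of the signal was 1147.4 to 2924.8 against a median background of 23.0 to 33.5, and 71.9% to 85.6% of the spots were well above background. The knockdown target Dnmt1 fell by 2.07 on the log2 scale in OS-treated MEFs (adjusted p = 4.75e-06, limma) and by 2.36 in OCKS-treated MEFs (adjusted p = 1.98e-06, limma). Pou5f1, which encodes Oct4, rose by 5.76 with OS (adjusted p = 9.99e-07, limma), while with OCKS its level of -6.23 against -7.05 in control MEFs did not pass the test. Which part of the transcript its probe reads, and whether the OCKS construct holds that part, is not given in the sources used here. Sox2, which both constructs hold, did not pass the test with either. Its mean was -5.50 in control MEFs, -5.29 with OS and -4.23 with OCKS, and the part its probe reads is likewise not given. All 8 fibroblast markers were above background in every group, with a summed level of 8.81 to 9.39 in control MEFs, 7.80 to 8.25 in OS-treated, 7.55 to 8.38 in OCKS-treated MEFs and 3.89 to 3.94 in PGCs. The summed level of 10 germ cell markers was 6.31 to 6.57 in PGCs, 0.47 to 0.72 in control MEFs, 0.35 to 0.70 in OS-treated and -0.04 to 0.31 in OCKS-treated MEFs. Among these 10 markers OS gave 5 rises and 2 falls, and OCKS gave 4 rises and 2 falls. Dazl, Dnd1, Kit and Mael rose with both. The further rise with OS is that of Pou5f1, which the construct itself delivers. Nanos3 and Sall4 fell with both. In control MEFs the sum of the germ cell markers mostly follows these falling genes, with means of -0.45 and -1.04. Their PGC means were -0.69 and -1.40, which did not pass the test. A sum that is level or lower in treated MEFs therefore does not show that no germ cell marker rose. Gonadal somatic cell markers were also above background in PGCs (9 of 9), where 4 rose and 3 fell against control MEFs. Their summed level was 4.95 to 5.15 in PGCs and 5.12 to 5.30 in control MEFs. It mostly follows the brightest, Foxl2, with means of 4.45 and 4.27. Of 4 endothelial markers 1 rose and 0 fell in PGCs. Their sum, 2.57 to 2.73 in PGCs and 2.56 to 2.74 in control MEFs, mostly follows Kdr (means 2.57 and 2.65). Equal sums therefore do not show an equal content of these cells. In treated MEFs the endothelial sum was 1.40 to 1.69 with OS and 1.55 to 1.78 with OCKS. Kdr fell with each construct, and Cdh5, above background on 1 control array, rose 6.21-fold with OS. Of the 9 gonadal markers 5 (OS) and 4 (OCKS) fell, and of the 8 fibroblast markers 4 (OS) and 3 (OCKS) fell. Of the leukocyte markers, 7 of 7 fell with each construct, and their summed level was 2.70 to 3.34 in control MEFs, -0.01 to 0.40 with OS and -0.40 to 0.07 with OCKS, where 4 and 3 of the 7 were still above background on all 3 arrays. The part of these markers in the changes given here was not tested. Treated and control MEFs were never on the same slide, so that slide and treatment cannot be told apart in those comparisons. Arrays 2 and 3 of control MEFs and of PGCs shared a slide, and so did array 1 of the OS-treated and array 1 of the OCKS-treated MEFs. Arrays 2 and 3 of OS-treated MEFs were on a slide of their own, and those of OCKS-treated MEFs on another.

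Of the meiotic cohesin genes, Stag3 and Smc1b rose in treated MEFs with either construct, and Rec8 did not pass the test. Stag3 encodes the meiotic counterpart of the SA subunits, which bind the closed ring. Its level was -5.67, -5.26 and -5.37 in control MEFs, -3.37, -2.78 and -2.70 in OS-treated MEFs, -2.29, -2.58 and -2.61 in OCKS-treated MEFs and 5.65, 5.48 and 5.81 in PGCs. Every treated array was thus above every control array and far below every PGC array. With OS, Stag3 rose by 2.48 in log2 units (standard error 0.19, 5.58-fold, adjusted p = 2.36e-06, limma) and by 2.94 with OCKS (standard error 0.19, 7.66-fold, adjusted p = 7.59e-07, limma).

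Smc1b encodes the meiotic SMC1 subunit, one of the long arms of the ring. Its level was -7.88, -7.69 and -7.41 in control MEFs, where 2 of 3 arrays were above background. It was -5.20, -5.16 and -5.26 in OS-treated, -4.89, -5.36 and -5.30 in OCKS-treated MEFs and 6.74, 6.37 and 6.43 in PGCs. The control, treated and PGC arrays did not overlap. The rise was 2.46 with OS (standard error 0.161, 5.49-fold, adjusted p = 8.81e-07, limma) and 2.48 with OCKS (standard error 0.161, 5.57-fold, adjusted p = 8.05e-07, limma).

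Rec8, the kleisin that closes the meiotic ring, was above background on every array of all groups. Its level was -1.80, -1.47 and -1.49 in control MEFs, -2.20, -1.82 and -1.99 with OS, -1.06, -2.14 and -1.61 with OCKS and 2.09, 1.59 and 1.68 in PGCs. The OS-treated arrays lay just below the control arrays, and the OCKS-treated arrays spread over both. The differences from control MEFs were -0.42 with OS (95% interval -0.98 to 0.14, adjusted p = 0.161, limma) and -0.02 with OCKS (95% interval -0.58 to 0.54, adjusted p = 0.947, limma).

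The cohesin of dividing cells showed no call in treated MEFs. Of its 5 genes, Smc1a, Smc3, Rad21, Stag1 and Stag2, 0 passed the test with either construct by limma, with median differences of -0.09 and -0.25. At an unadjusted p under 0.05, 2 of the 5 were lower with each construct. Stag1 had the widest differences, -0.58 with OS (adjusted p = 0.000432, limma) and -0.52 with OCKS (adjusted p = 0.000775, limma), which were under 2-fold. Of 12 regulators of cohesin tested, 1 fell and 0 rose with each construct. It was Wapl, which encodes the factor that releases the ring from DNA, and it fell by 1.15 with OS (adjusted p = 7.81e-06, limma) and by 1.10 with OCKS (adjusted p = 1.01e-05, limma). Wapl levels were 1.33, 1.61 and 1.48 in control MEFs, 0.29, 0.34 and 0.35 with OS and 0.53, 0.22 and 0.38 with OCKS.

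Among the genes that make the DNA breaks, Mei4 fell in treated MEFs, Mei1 did not pass the test and Spo11 could not be tested. Spo11, the nuclease itself, was at -5.90, -8.29 and -8.25 in control MEFs, where only array 1 was above background. It was at -9.24, -8.43 and -9.91 with OS and at -9.82, -9.56 and -8.38 with OCKS, with none of these arrays above background, and therefore was not tested against control MEFs. In PGCs it was at 1.94, 2.02 and 2.07, well above every fibroblast array.

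Mei1, which is needed for break formation in mice, was above background on every array of all groups, at a low level in the 3 fibroblast groups. It was at -5.96, -5.61 and -5.52 in control MEFs, -5.98, -5.76 and -5.97 with OS and -5.98, -5.84 and -6.04 with OCKS, so that the 3 fibroblast groups overlapped. PGC levels were 4.46, 4.28 and 4.60. The differences from control MEFs were -0.20 with OS (95% interval -0.51 to 0.10, adjusted p = 0.206, limma) and -0.25 with OCKS (95% interval -0.55 to 0.05, adjusted p = 0.126, limma).

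Mei4 encodes a partner of REC114 on the chromosome axis. Its brighter probe gave -6.29, -6.43 and -6.31 in control MEFs, all above background. With OS it gave -9.72, -9.60 and -9.65 and with OCKS -9.35, -8.75 and -9.40, with none above background, and in PGCs -3.45, -3.70 and -3.62. The signal thus dropped out of the detectable range in both treatments, and Mei4 fell at least 2.88-fold with OS (adjusted p = 1.34e-07, limma) and at least 2.27-fold with OCKS (adjusted p = 3.31e-07, limma). Such a bound compares the mean of the brighter group with a floor in the dimmer one, which on each array is the dimmest signal of any probe well above background, or the probe itself where that is brighter. Here and below, an adjusted p beside a bound tests the measured difference, which takes in the undetected values, and not the bound. The other Mei4 probe was not above background on any of the 9 fibroblast arrays and so bears on no change there. The leukocyte markers fell in the same comparisons, and their part in the fall of Mei4 was not tested.

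Other genes of break formation gave 2 rises among 4 tested with each construct. Rec114, whose product binds MEI4, had levels of -5.40, -5.33 and -5.63 in control MEFs, -4.49, -4.28 and -4.36 with OS and -4.11, -4.53 and -4.64 with OCKS, and rose 2.11-fold (adjusted p = 0.000154, limma) and 2.04-fold (adjusted p = 0.000207, limma). Hormad1, an axis protein, was not above background on any control array and rose at least 3.51-fold with OS (adjusted p = 6.78e-06, limma) and at least 3.70-fold with OCKS (adjusted p = 5.72e-06, limma). It is counted again below among the genes of the synaptonemal complex and axis. Prdm9, which marks the sites of breaks, differed by 0.17 with OS and by 0.68 with OCKS, and Tex15 by -0.13 and 0.11, all under 2-fold.

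Of the strand exchange members, Meiob rose with OS and Dmc1 was not detected in any fibroblast group. Dmc1, the recombinase that works only in meiosis, was not above background on any of the 9 fibroblast arrays by any of its 3 probes. By the brightest of them it was at -9.15, -8.52 and -8.56 in control MEFs, -7.81, -8.38 and -7.76 with OS, -8.05, -8.59 and -7.57 with OCKS and 3.41, 3.20 and 3.37 in PGCs. Values below background have no order, and no fold between the fibroblast groups is given.

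Meiob, which binds single-stranded DNA together with SPATA22, was at -5.28, -4.52 and -4.83 in control MEFs, -3.78, -3.73 and -4.05 with OS, -4.01, -3.78 and -4.05 with OCKS and 4.35, 4.25 and 4.46 in PGCs. Both treated groups lay above all control arrays. It rose by 1.02 with OS (standard error 0.178, 2.03-fold, adjusted p = 0.000592, limma), just past the thresholds. With OCKS the difference was 0.93 (standard error 0.178, 1.91-fold, adjusted p = 0.00102, limma), just short of both, and the difference between the constructs was -0.09 (95% interval -0.49 to 0.31). The call with OS was lost when any single array other than control array 2 or OCKS array 2 was left out (0.82 to 1.12), with normexp and quantile normalization (0.64) and with only these groups in the fit (adjusted p = 0.00802, limma), while the direction held.

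Of 8 other strand exchange genes tested, 2 rose and 0 fell with each construct. Mnd1, whose product works with DMC1, had the widest change of those tested. It was at -1.84, -1.78 and -1.93 in control MEFs, 1.52, 1.90 and 2.04 with OS, 2.13, 1.52 and 1.63 with OCKS and had a mean of 2.17 in PGCs. The rise was 12.7-fold with OS (adjusted p = 1.09e-07, limma) and 12.2-fold with OCKS (adjusted p = 1.24e-07, limma). Its partner Psmc3ip, at a mean of -1.50 in control MEFs, -2.12 with OS and -1.92 with OCKS, differed by less than 2-fold. Xrcc3, a gene of homologous recombination, rose 2.55-fold with OS (adjusted p = 0.000128, limma) and 3.83-fold with OCKS (adjusted p = 1.06e-05, limma).

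Of the crossover genes Msh4 and Msh5, whose products form a dimer, Msh4 fell with OS and Msh5 did not pass the test with either construct. Msh5 was at -3.39, -3.64 and -3.58 in control MEFs, -3.38, -3.31 and -3.30 with OS and -3.63, -3.21 and -3.28 with OCKS. The differences were 0.21 with OS (95% interval -0.06 to 0.48, adjusted p = 0.149, limma) and 0.16 with OCKS (95% interval -0.10 to 0.43, adjusted p = 0.248, limma). Its PGC levels were 1.10, 0.93 and 1.06.

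Msh4 was at -5.18, -4.68 and -5.59 in control MEFs, -6.25, -6.29 and -6.25 with OS, -5.72, -5.76 and -5.78 with OCKS and 0.42, 0.37 and 0.43 in PGCs by its brighter probe. Both treated groups lay below every control array. Msh4 fell by 1.11 with OS (standard error 0.179, adjusted p = 0.000357, limma), and the difference with OCKS was -0.60 (standard error 0.179, adjusted p = 0.0128, limma), which did not pass. The other Msh4 probe bears on no change between control and OS-treated MEFs. It was at a mean of -8.30 in control MEFs and -7.64 with OS, not above background on any of these arrays, at -7.01 with OCKS, above background on 1 array, and at 2.13 in PGCs. The fall with OS was lost with the slide as a random block (adjusted p = 0.00112, limma), in the fit of these groups alone (adjusted p = 0.0078, limma) and with the deposited value table (adjusted p = 0.0018, limma). It was also lost with normexp and quantile normalization (-0.34), with the mean of both probes, which takes in the undetected one (-0.23), under scaling by 8 spike-in probes (-0.30), with quantile normalization (-0.87), and without control array 1 (-1.13), control array 2 (-0.88) or any OS array (-1.12 to -1.10).

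**Figure D2:**
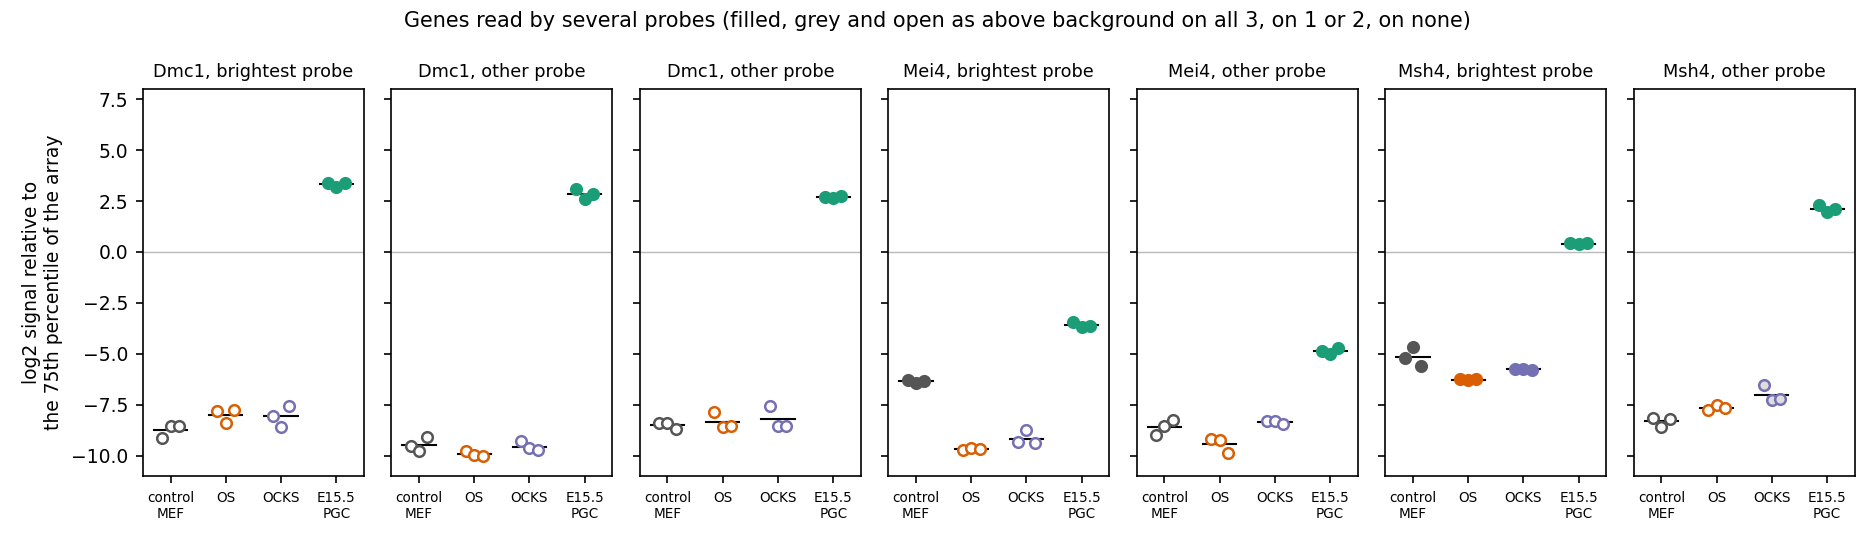
Log2 signal relative to the 75th percentile of the array (y axis) of each probe of Dmc1, Mei4 and Msh4, with 1 point per array, a bar at the group mean and filled, grey and open points for groups above background on all 3, on 1 or 2 and on no array. The brighter Msh4 probe is at -5.15 in control and -6.26 in OS-treated MEFs, the other is open in both, and all 7 probes are highest in PGCs.

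Of 9 other crossover genes tested with OS and 8 with OCKS, 2 rose and 0 fell with each. Tex11, an X-linked gene of crossover formation, was not above background on any control array and rose at least 5.97-fold with OS (adjusted p = 1.78e-05, limma) and at least 6.02-fold with OCKS (adjusted p = 1.67e-05, limma). Ccnb1ip1, also called Hei10, was above background on 1 control array and rose 8.73-fold with OS (adjusted p = 1.73e-05, limma) and 8.39-fold with OCKS (adjusted p = 1.86e-05, limma). Mlh3, Exo1, Mus81 and Cdk2, which also act outside meiosis, did not pass both thresholds.

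Counted over the set, 3 of 8 members tested rose with OS (Stag3, Smc1b and Meiob), 2 fell (Mei4 and Msh4) and 3 did not pass. Over all 16266 genes tested, 10.4% rose and 12.9% fell. With OCKS, 2 of 8 rose (Stag3 and Smc1b), 1 fell (Mei4) and 5 did not pass, where 10.9% of 16158 genes rose and 14.2% fell. The median difference of the 8 members was 0.00 with OS and 0.07 with OCKS, beside -0.21 and -0.19 over all genes tested. With so few members these shares are a description. Spo11 and Dmc1 were not tested in either comparison.

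**Figure D3:**
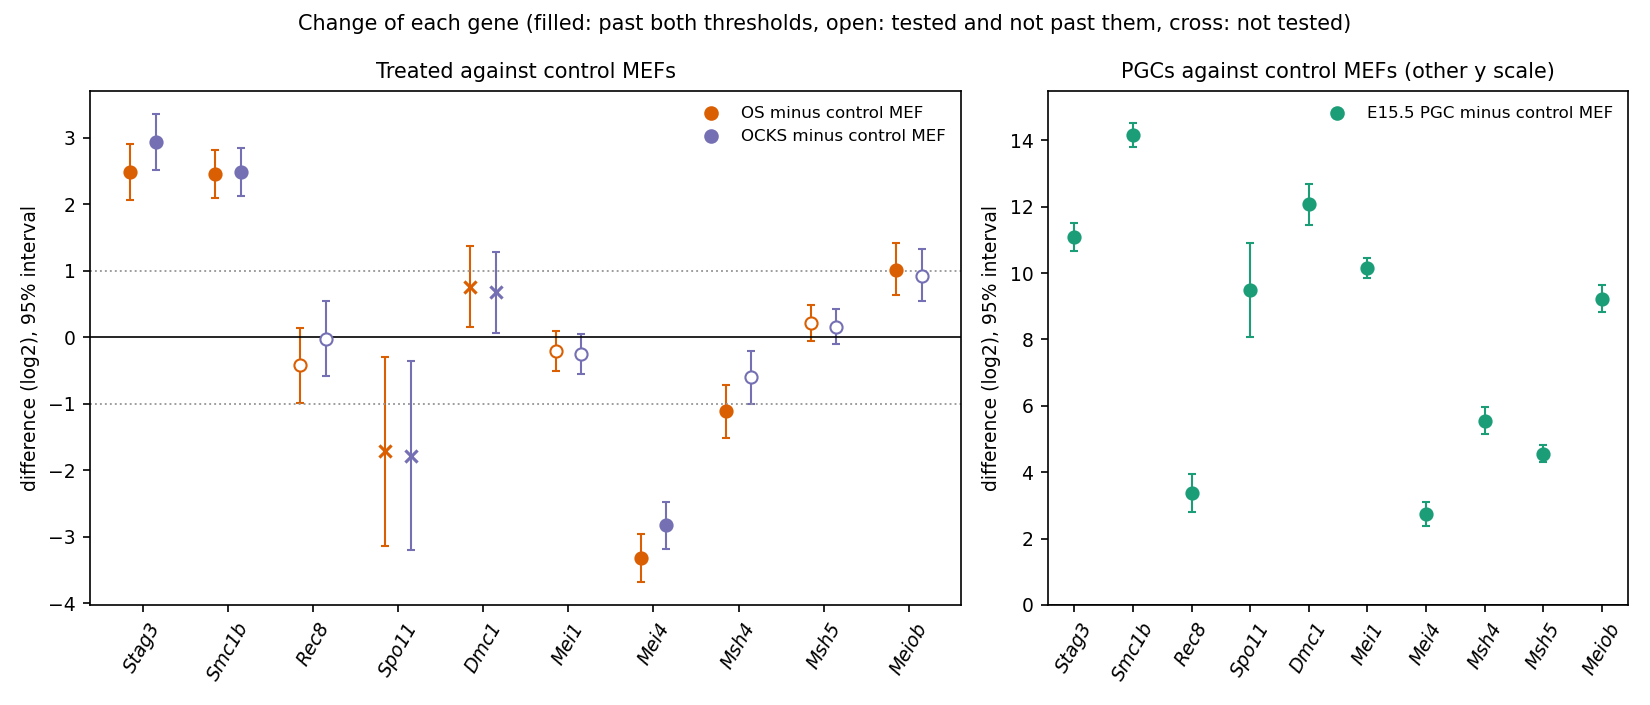
Difference of the log2 signal from control MEFs (y axis) with its 95% interval for the 10 genes, with OS and OCKS on the left and PGCs on the right, on another scale. Filled points passed both thresholds, open points were tested and did not pass, and crosses were not tested. The dotted lines mark a 2-fold change, and Stag3 and Smc1b stand above 2 with either construct while all PGC differences lie between 2.75 and 14.17.

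Genes of the synaptonemal complex and of meiotic entry were called more often than the members, in a comparison of counts that was not tested. Of 7 genes of the synaptonemal complex and chromosome axis tested, 5 rose and 0 fell with each construct, with median differences of 3.91 and 3.80. Hormad1, counted with the break genes as well, is among those that rose. Syce1, a component of the central element, rose 25.5-fold with OS (adjusted p = 5.47e-08, limma) and 28.1-fold with OCKS (adjusted p = 4.33e-08, limma), with 2 of 3 control arrays above background. Sycp1, the transverse filament, was not above background on any control array and rose at least 7.76-fold and at least 6.75-fold. Of 6 regulators of meiotic entry and the germ line tested, 4 rose and 0 fell with each construct: Tex19.1 at least 372-fold with OS and at least 534-fold with OCKS, Dazl at least 37.7-fold and at least 30.8-fold, Rnf17 at least 4.95-fold and at least 5.34-fold, and Mael 7.89-fold and 6.01-fold. Stra8, the meiotic inducer, was above background on 2 of 3 arrays in each fibroblast group and was not tested. These lists were drawn up with earlier results of these arrays known.

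**Figure D4:**
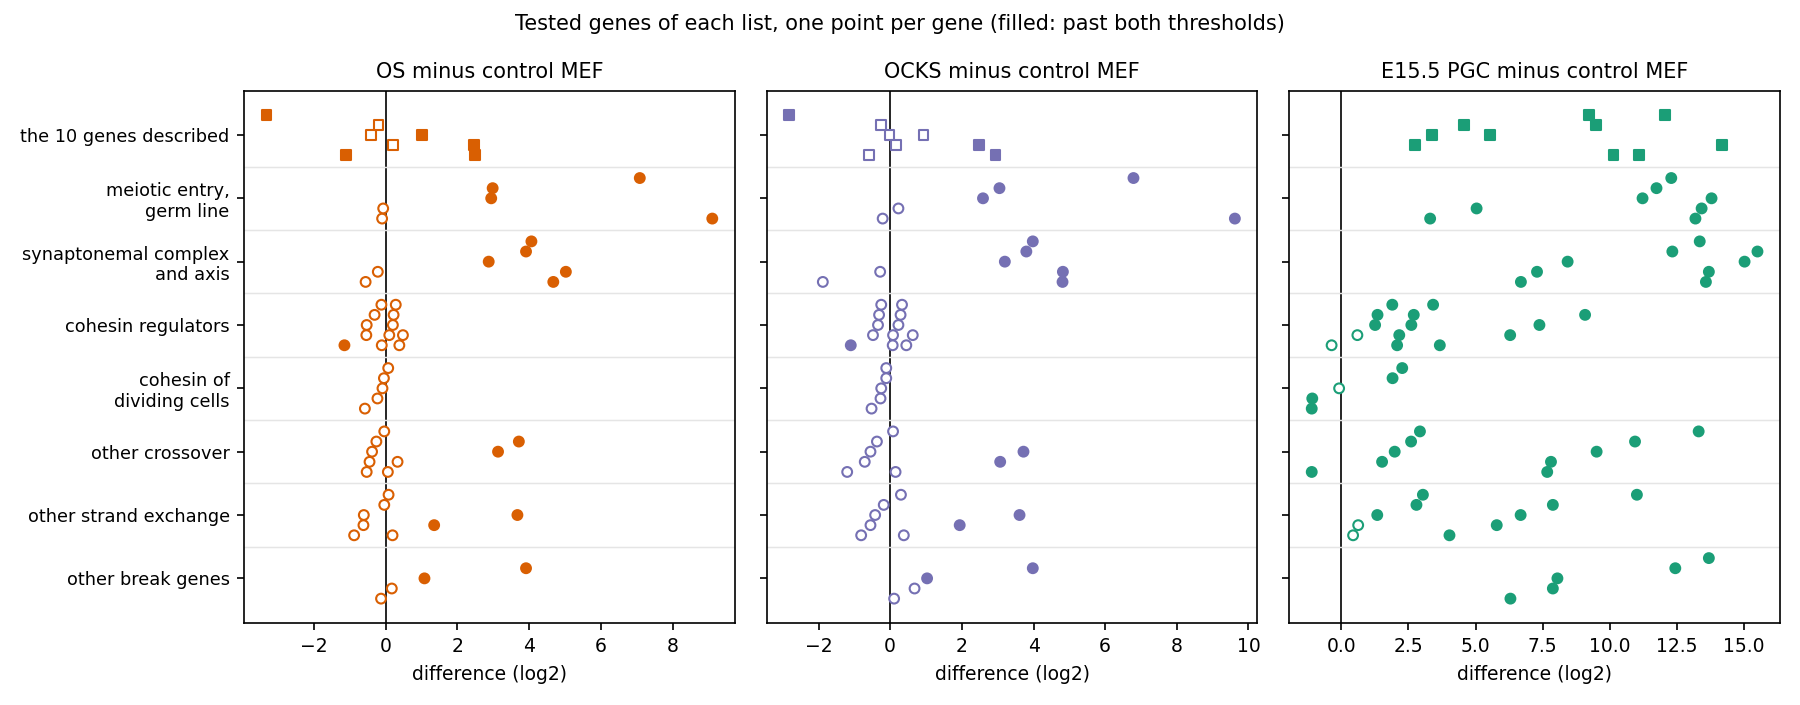
Difference of the log2 signal from control MEFs (x axis) for each tested gene of 7 lists and for the members of the set, in OS-treated MEFs, OCKS-treated MEFs and E15.5 PGCs, with filled points past both thresholds. In treated MEFs the median is 3.91 (OS) and 3.80 (OCKS) for the synaptonemal complex and axis and 0.00 and 0.07 for the set, and in PGCs it is 13.35 and 9.36.

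OCKS-treated MEFs were set against OS-treated MEFs, whose constructs differ in Klf4 and c-Myc. Klf4 had a mean of 2.78 in control MEFs, 2.73 with OS and 2.55 with OCKS, and Myc of 0.35, 1.90 and 1.63. Neither mean was thus higher with OCKS than with OS. Which part of these transcripts the probes read is not given in the sources used here. The levels therefore do not show whether the construct delivered Klf4 and c-Myc. Pou5f1 was lower with OCKS than with OS by 4.94 (adjusted p = 0.00268, limma). By the methods, OCKS was carried by a tandem vector, and Oct4 and Sox2 by separate vectors. An effect of Klf4 and c-Myc alone was therefore not tested. Of 7 members tested 0 passed the thresholds by limma, as did 0.0% of all 15707 genes tested, while 2665 of these genes (17.0%) and 2 of the 7 members, Stag3 and Msh4, had an unadjusted p under 0.05. Stag3 was higher with OCKS by 0.46 (95% interval 0.03 to 0.88, adjusted p = 0.262, limma) and Msh4 by 0.51 (95% interval 0.11 to 0.91, adjusted p = 0.208, limma). The interval was -0.34 to 0.38 for Smc1b, -0.16 to 0.96 for Rec8, -0.35 to 0.26 for Mei1, -0.31 to 0.22 for Msh5 and -0.49 to 0.31 for Meiob. On the slide with 1 array of each group, Stag3 differed by 1.08, Rec8 by 1.14 and Smc1b by 0.30. Under spike-in scaling the Stag3 difference was -0.02 and that of Msh4 0.03.

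PGCs had far more RNA of every member than any fibroblast group. All 10 rose against control MEFs, where 31.7% of 17366 genes tested rose. Smc1b differed by 14.17 on the log2 scale (standard error 0.161, adjusted p = 2.77e-12, limma), with 2 control arrays above background. Dmc1 was at least 2590-fold higher (adjusted p = 6.5e-11, limma), Stag3 higher by 11.08 (adjusted p = 1.57e-11, limma), Mei1 by 10.14 (adjusted p = 5.36e-12, limma) and Spo11 by 9.49 (standard error 0.639, adjusted p = 1.45e-07, limma), a value that rests on 1 control array above background. Meiob was higher by 9.23, Msh4 by 5.55, Msh5 by 4.56, Rec8 by 3.37 and Mei4 by 2.75. The size depended on the probe for Msh4, whose other probe was brighter in PGCs and differed by 10.43, and for Mei4, whose other probe differed by 3.72, both from control levels below background. Mei4 differed by 0.92 with normexp and quantile normalization, which is under 2-fold. On the slide shared by arrays 2 and 3 of both groups the differences were between 2.71 for Mei4 and 13.95 for Smc1b. The median over the 10 members was 9.36, midway between Spo11 and Meiob, against 0.30 over all genes tested.

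The genes that rose in treated MEFs stayed far below PGCs. Against OS-treated MEFs all 10 members were called higher in PGCs, as were 36.2% of 17408 genes tested, and against OCKS-treated MEFs all 10, as were 36.4% of 17368 genes. Stag3 in PGCs was 387-fold above OS-treated MEFs (adjusted p = 5.95e-11, limma) and 282-fold above OCKS-treated MEFs. Smc1b was 3370-fold and 3320-fold higher, and Meiob 296-fold and 315-fold. For the genes without signal in treated MEFs the PGC level was at least 942-fold (OS) and 742-fold (OCKS) higher for Spo11, 2260-fold and 1850-fold for Dmc1 and 19.4-fold and 15.3-fold for Mei4. Rec8 was 13.8-fold and 10.5-fold below the PGC level.

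Related genes rose with the set in PGCs. All 5 other break genes, 8 of 10 strand exchange genes, 9 of 10 crossover genes, all 9 genes of the synaptonemal complex and axis and all 8 regulators of meiotic entry rose against control MEFs. Hormad1 is counted both with the break genes and with the synaptonemal complex and axis. Among the genes that rose were Spata22, the partner of MEIOB, higher by 11.01 with 1 control array above background, and Hfm1, a helicase of crossover formation, higher by 10.94. Large bounds were those of Syce3 (at least 21300-fold), Sycp1 (at least 7950-fold) and Tex11 (at least 4630-fold). Of the cohesin of dividing cells, Smc3 rose by 2.27 and Stag1 by 1.91, Rad21 fell by 1.10 and Stag2 fell by 1.08, and Smc1a did not pass (-0.08). Among 14 cohesin regulators 12 rose, with Fbxo47 (542-fold, above background on 1 control array) and Meikin (166-fold, above background on 2) ahead of Esco2 (78.5-fold). Mus81, a nuclease of the other crossover pathway, fell by 1.10.

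The spread between arrays was small in PGCs, with a standard deviation of at most 0.26 for any member. It was at most 1.37 in control MEFs, where Spo11 set the maximum, 0.74 in OS-treated and 0.77 in OCKS-treated MEFs.

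Across the 12 arrays the 3 genes most like Stag3, out of 16887 compared, were Ctag2l1, Xlr4a and Sycp3, each with a Pearson's r of 0.999. Their mean levels in control, OS-treated and OCKS-treated MEFs and PGCs were -5.59, -3.71, -3.41 and 2.97 for Ctag2l1, -5.54, -3.08, -2.96 and 4.76 for Xlr4a and -7.67, -4.81, -4.47 and 5.91 for Sycp3, the axial element of the synaptonemal complex. Smc1b was followed most closely by Zcwpw1, which reads the histone marks set by PRDM9, Caprin2 and Usp3 (0.999 each). The nearest to Mei4, which was below background on the 6 treated arrays, were Pygo1, Tmsb15a (0.997 each) and Nkd1 (0.996). The nearest to Msh4 were Cmc4, Cramp1l and Senp8 (0.999 each), and to Meiob Sepsecs (0.999), Ift80 and Ddx20 (0.998 each). With PGC arrays so far from the rest, such values mostly follow the step between fibroblasts and PGCs. Within the 9 fibroblast arrays alone r was 0.977 between Stag3 and Smc1b, 0.892 between Stag3 and Meiob and 0.913 between Smc1b and Meiob, as a description of arrays that share their groups and scaling.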

How the data were processed

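RNA of each sample was measured on its own Agilent mouse array with 1 dye. The spot intensities deposited by the authors are the output of Feature Extraction 10.7.3.1, corrected for background but not scaled between arrays. The authors also deposited a table of log2 values, which had been scaled to the 75th percentile and then centred by probe. The direction of its values follows the arrays. Of its 12 columns, 10 match their arrays. The other 2, of PGCs, were not used. Builds and aligners do not apply, and the test used by the authors is not given in the sources used here.

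Of 39429 probes that are not controls, 83 with no even spot on some array were left out. RefSeq accessions named 25992 probes as 19718 genes. Log2 intensities were used after subtraction of the 75th percentile. Each gene was represented by its brightest probe, 3 of the 10 members having several. Differences were tested with limma 3.58.1 (R 4.3.3) in a fit of all 12 arrays with 4 group means, and p-values were adjusted by Benjamini-Hochberg over all genes tested in a comparison. The methods call the 3 samples of a group biological replicates without saying whether cultures or animals were separate, so that p-values measure the spread between these samples. The number of arrays limits the precision. Tests were tried on simulated data.

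The members, lists and tests were chosen with earlier results of these data known. All 10 members are named, and from each list up to 4 genes past the thresholds with the largest change, together with examples that did not pass and were picked after their values were seen. Likeness is Pearson's r over 12 arrays with the 3 highest genes, symbols of predicted genes left out. Promoters came from RefSeq (GRCm38.p6), which matched 8 of the 10 members. Alternatives were quantile normalization, normexp with an offset of 50 (median spot signals stood in for the mean), spike-in scaling, filters, the mean of the probes, a fit of the 2 groups, blocks by slide or replicate number, other thresholds, the value table and leaving out each array. Each other probe as a feature was added after the data were seen. Python 3.11.15 with matplotlib 3.10.9 drew the plots, and pandas 2.3.3 and numpy 2.4.6 built the tables.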

Additional observations from a re-analysis of the deposited data

How the results depend on the processing

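The rises of Stag3 with both constructs passed under every alternative run, between 1.60 and 3.30 on the log2 scale with OS and between 1.94 and 3.28 with OCKS. Of 5 members called with OS, 1 remained with normexp and quantile normalization, 3 with a filter on both groups, 3 in a fit of the 2 groups alone and 3 with the deposited value table, and with any array left out 3 to 5 were called, with 3 without control array 1 and without each OS array. Of 3 members called with OCKS, 1 remained with normexp and quantile normalization and 1 with the filter on both groups. With any array left out 3 to 4 members were called with OCKS. Normexp with an offset of 50 compresses dim signals by construction, so that Smc1b changed by 0.82 and 0.86 and Mei4 by -0.44 and -0.35 there, and the filter on both groups leaves Smc1b and Mei4 untested. Meiob passed with OCKS under quantile normalization (1.01), spike-in scaling (1.28), the 75th percentile over detected probes (1.01) and without control array 2 (1.11). Correlations of same-numbered deviations ran from -0.232 to 0.351. With 3 arrays per group they do not settle whether replicate numbers pair the arrays, and the tests above took the arrays as unpaired. With the replicate block 4 members were called with OS, Meiob being lost (adjusted p = 0.00119, limma), 3 with OCKS and 10 in PGCs. The slide as a random block gave 4, 3 and 10, Msh4 being lost with OS. Spike-in scaling moved the median of all genes from -0.21 to 0.61 with OS, where 3891 genes rose and 568 fell in place of 1696 and 2102, from -0.19 to 0.15 with OCKS, where 2133 rose and 1001 fell in place of 1768 and 2294, and from 0.30 to -0.12 in PGCs, where 3989 rose and 5089 fell in place of 5502 and 4354. Of 1399 recomputed member changes, 1361 had the same outcome, which includes changes not called, or not tested, in either setting. Of the rest, 31 lost a call, 4 gained a call and 3 within a slide moved by more than the spread. No called change turned direction. Differences that passed under neither setting, such as that of Mei1 with OS (-0.34 to 0.61), could change sign. Levels near the background limit what dim probes can show.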
